A study of Mus musculus with 2 samples.

Results

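The calcium release unit is described here by 10 genes: the ryanodine receptors Ryr1, Ryr2 and Ryr3, the calsequestrins Casq1 and Casq2, Trdn (triadin), Asph (the gene of junctin, junctate and aspartate beta-hydroxylase), the junctophilins Jph1 and Jph2, and Hrc (the histidine-rich calcium-binding protein). They were taken by gene symbol from 55536 annotated mouse genes, by a rule that uses no measured value, although earlier results of these data were known when the genes were chosen. All 10 were found. The samples were the hearts of 2 female B6CASTF1/J mice, F1 hybrids of C57BL/6J and CAST/EiJ parents, 8 to 10 months old, untreated as far as the labels say. Replicate 1 is animal 1 and replicate 2 is animal 3 in the labels, with 1 total RNA library each of 42223411 and 40553237 expected counts. There is a single group and hence no comparison between groups. With 2 animals the smallest two-sided p of an exact sign-flip test is 0.5, and no p is given. Means are given ± SD (n = 2 animals), and where 2 values stand side by side that of replicate 1 comes first.

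In heart muscle the release unit sits where a T-tubule meets the junctional sarcoplasmic reticulum. Calcium entering through the L-type channel opens the ryanodine receptor, which lets stored calcium out to the myofilaments. Inside the reticulum calsequestrin buffers that store, and triadin and junctin, which are reticulum membrane proteins, hold calsequestrin close to the channel. Junctophilins hold both membranes together, and Hrc is another calcium-binding protein of the lumen.

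The labelled tissue was borne out by its markers. All 8 cardiomyocyte markers reached 1 TPM (transcripts per 1000000, a level per length of RNA) in both animals, led by Myl2 at 9141 ± 522 TPM. Endothelial (6 of 6, led by Fabp4), fibroblast (6 of 6, led by Dcn), macrophage (5 of 5, led by Lyz2) and smooth muscle markers (6 of 6, led by Smtn) were present too. Of 9 markers of neurons and glia, 0 reached 1 TPM in both animals. The 5 atrial markers, led by Nppa, summed to 1242 TPM in replicate 1 and 731 TPM in replicate 2. The 4 ventricular markers summed to 13730 and 12530 TPM.

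The 10 genes are put here into 3 levels of RNA, a division for description only. Ryr2, Hrc and Casq2 stood highest, and Jph2, Trdn and Asph followed within an order of magnitude. Jph1, Casq1, Ryr3 and Ryr1 lay far below, themselves spread from 9.19 TPM (Jph1) to 0.335 TPM (Ryr1) by mean. Of the 10 genes, 8 reached 1 TPM in both animals, beside 48.7% of all protein-coding genes, and 6 were in the top 5% of protein-coding genes by mean TPM. The order of the first 8 was the same in both animals. Ordered by mean TPM, 7 of 9 pairs of neighbours had ranges that did not overlap between the animals. The exceptions were Ryr2 with Hrc and Ryr3 with Ryr1. As bulk RNA was measured, a level that differs because of fewer cells of a type and one that differs because of less RNA per cell cannot be told apart.

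**Figure D1:**
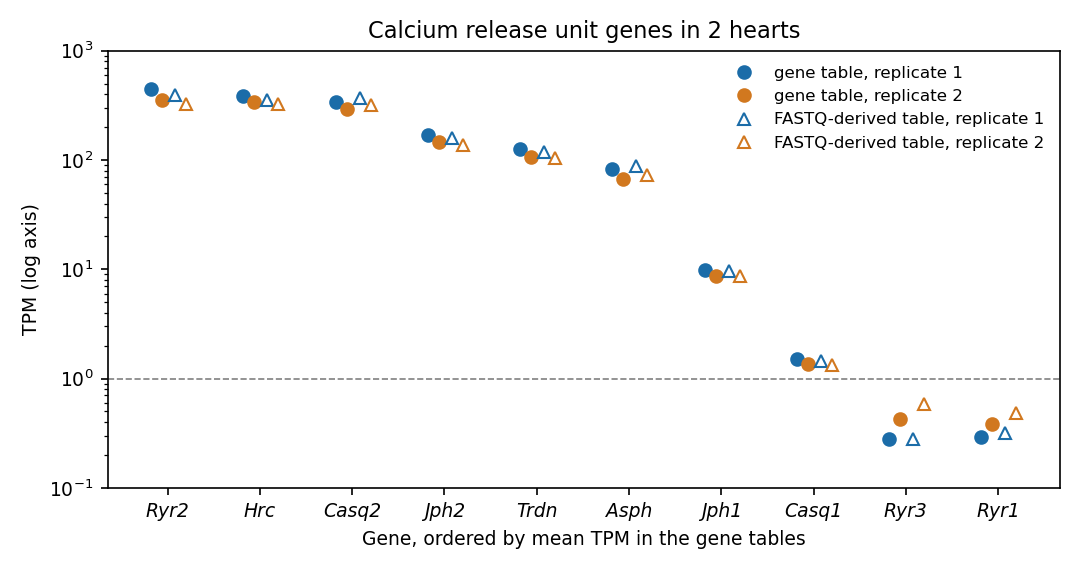
TPM (log axis) of the 10 genes in each animal, from the gene tables (filled circles) and from the FASTQ-derived transcript tables summed to genes (open triangles). The dashed line marks 1 TPM; Ryr1 and Ryr3 lie below it in all 4 tables, and Ryr2, Hrc and Casq2 lie close together at the top.

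Ryr2, the release channel of the heart (chr13:11553102-12106945, minus strand, mm10), had 445 and 355 TPM (399.7 ± 63.4) from 220383 and 177332 expected counts. The higher value was that of replicate 1, and the deposited credibility intervals, 432 to 441 and 344 to 353 TPM, did not overlap. Those intervals lie around the deposited posterior mean (436 and 348 TPM), which can differ from the plain TPM. As the longest RNA among the abundant members, Ryr2 took 69.5% and 68.2% of the expected counts of all 10 genes together, which in turn were 0.751% and 0.642% of each library. Per length, Ryr2 held 99.9% and 99.8% of the TPM of the ryanodine receptor family.

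The other ryanodine receptors were near the lower limit of what these libraries resolve. Ryr1, the release channel of skeletal muscle (chr7:29003344-29125179, minus strand), had 0.29 and 0.38 TPM from 148 and 177 counts. Ryr3, a more widely expressed isoform found in brain and some muscles (chr2:112631355-113217096, minus strand), had 0.28 and 0.43 TPM from 131 and 94 counts. For Ryr3 the animals were thus ordered one way by TPM and the other way by counts. The deposited effective length of Ryr3, an average over the transcripts assigned to it, was 13981 bases in replicate 1 and 6463 in replicate 2. Short retained-intron transcripts held 10.7% and 58.5% of its TPM, although they held only 3.10% ± 2.19 of its counts. The ratio of Ryr2 to Ryr1 was 10.18 ± 0.50 on the log2 scale of TPM + 0.01 (1161-fold), and that to Ryr3 was 10.12 ± 0.66 (1112-fold). By the posterior mean the ratios were 9.50 and 8.10. Ryr1 was listed there at 0.52 and 0.54 TPM, and Ryr3 at 1.35 and 1.48 TPM with bounds of 0.373 to 2.94 and 0.407 to 3.10.

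Casq2, the cardiac calsequestrin (chr3:102086415-102146514, plus strand), had 338 and 291 TPM (315 ± 33.0; 27878 and 22879 counts). Casq1, the calsequestrin of fast skeletal muscle (chr1:172209894-172219868, minus strand), had 1.51 and 1.37 TPM from 76 and 65 counts, and its credibility intervals overlapped. In both animals Casq2 was higher, by 7.76 ± 0.05 on the log2 scale (217-fold). Hrc (chr7:45335290-45338974, plus strand) had 385 and 342 TPM (364 ± 30.1; 29622 and 26486 counts). It was above Casq2 in both gene tables, but in the FASTQ-derived tables the pair stood at 357 and 324 TPM for Hrc and 372 and 322 TPM for Casq2. Between Hrc and Casq2, the order in replicate 1 therefore depended on the table.

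These luminal proteins bind calcium through acidic residues. Stretches of their coding sequences are shown for their composition, the calsequestrin tails for their runs of acidic codons and Hrc for the histidine codons that gave it its name. The sequences below are the last 30 codons before the stop codon of Casq2-201 and Casq1-201, and codons 189 to 218 of Hrc-201, the 30 with the most histidine codons. They are written 5′ to 3′ on the coding strand, from the GENCODE M21 transcripts (mm10). Capitals mark aspartate and glutamate codons in the calsequestrins and histidine codons in Hrc.
Casq2: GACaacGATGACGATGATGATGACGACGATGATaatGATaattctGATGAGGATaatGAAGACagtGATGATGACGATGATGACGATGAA
Casq1: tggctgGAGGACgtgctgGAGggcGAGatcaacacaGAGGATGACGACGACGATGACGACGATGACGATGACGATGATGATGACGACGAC
Hrc: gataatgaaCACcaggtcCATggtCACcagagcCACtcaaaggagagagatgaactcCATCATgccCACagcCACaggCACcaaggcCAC
Of the last 30 codons 24 were acidic in Casq2 and 22 in Casq1. The Hrc stretch held 10 histidine and 5 acidic codons. Whole coding sequences were compared by the longest one annotated for each gene. In Casq2, Jph2 and the ryanodine receptors this was not that of the main transcript. For Casq2 it was Casq2-205, of 418 codons. Aspartate and glutamate made up 30.8% of codons in Hrc, 28.4% in Casq1 and 26.6% in Casq2. The median was 11.2% over 21502 genes with a complete coding sequence. Hrc ranked in the top 0.0744% for acidic and in the top 0.0558% for histidine codons, and the calsequestrins in the top 0.140% (Casq1) and 0.214% (Casq2) for acidic codons. The junctophilins (10.9% and 12.4%) lay near the median. The ryanodine receptors (13.7% to 14.6%) lay above it, in the top 15.6% (Ryr1) to 22.4% (Ryr3) of genes. The Casq1 and Casq2 transcripts shared 0 words of 31 bases, so exact sharing of such words does not tie their levels together.

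**Figure D2:**
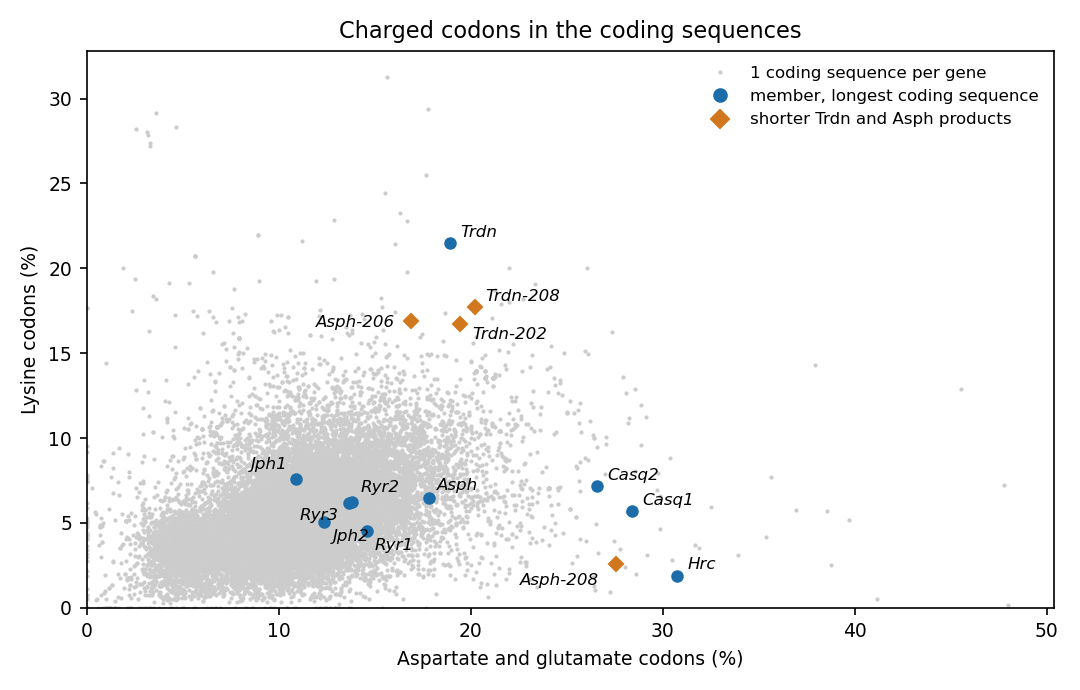
Percent of lysine codons (vertical) against percent of aspartate and glutamate codons (horizontal) in the longest coding sequence of each gene (grey points). Members are blue circles, and shorter Trdn and Asph products are orange diamonds. Hrc, Casq1, Casq2 and Asph-208 lie far to the right, and Trdn, its short products and Asph-206 lie high.

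Jph2, the junctophilin of the heart (chr2:163336242-163397993, minus strand), had 171 and 146 TPM (158 ± 17.4; 23589 and 20335 counts). Jph1, the main junctophilin of skeletal muscle (chr1:16964560-17097889, minus strand), had 9.78 and 8.60 TPM (9.19 ± 0.83; 1549 and 1372 counts). Jph2 was higher in both animals, by 4.10 ± 0.03 on the log2 scale (17.2-fold). Of the 3 cardiac-over-skeletal contrasts in the unit, this was the smallest in these libraries: Jph1 was above the median of expressed protein-coding genes (7.97 TPM), whereas Casq1 and Ryr1 were not. Jph1 and Jph2 each had 1 transcript with essentially all of the TPM, Jph1-201 (100%) and Jph2-201 (99.7% ± 0.46).

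Trdn (chr10:33080554-33476709, plus strand) had 126 and 107 TPM (116 ± 13.4; 7064 and 5897 counts), and Asph (chr4:9448069-9669344, minus strand) had 82.9 and 67.3 TPM (75.1 ± 11.0; 6673 and 5500 counts). Trdn exceeded Asph by 0.63 ± 0.05 on the log2 scale (1.55-fold). Relative to Ryr2 in the same library, the level per length of the 6 members below varied little between the animals, unlike that of Ryr1 and Ryr3 (above). All 6 ratios were higher in replicate 2, and as they share Ryr2 as denominator they are not separate observations. The log2 ratio to Ryr2 was -0.13 ± 0.11 for Hrc, -0.34 ± 0.08 for Casq2, -1.33 ± 0.07 for Jph2, -1.78 ± 0.06 for Trdn, -2.41 ± 0.02 for Asph and -5.44 ± 0.10 for Jph1. Ryr2 was thus 2.52-fold above Jph2, 3.44-fold above Trdn and 5.32-fold above Asph. In the FASTQ-derived tables the ratio of Casq2 to Ryr2 was nearer to 1, at -0.05 ± 0.06 on the log2 scale.

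Both genes make several proteins, and the gene level hides which. The triadin transcripts that matter here share their first coding exons and end at different places. Trdn-201 runs through 38 exons to a stop codon at position 33474518 and codes for 693 residues. Trdn-202 reads past the end of exon 9 (chr10:33200163-33200222, 60 bases, numbered as in Trdn-201) into the following intron and stops after 293 codons. Trdn-208 does the same after exon 8 (chr10:33195949-33196125, 177 bases) and stops after 277 codons. The 4 sequences below show where the products part. Each is on the plus strand, 5′ to 3′ (mm10), with 30 shared exon bases in lower case and, in capitals, either the read-through to the stop codon or the same number of bases of the next exon.
Trdn-208, past exon 8: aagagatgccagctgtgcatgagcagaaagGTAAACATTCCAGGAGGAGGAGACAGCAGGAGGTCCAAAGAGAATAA
Trdn-201, exon 8 to exon 9: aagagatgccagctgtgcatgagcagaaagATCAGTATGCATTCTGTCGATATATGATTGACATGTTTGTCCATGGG
Trdn-202, past exon 9: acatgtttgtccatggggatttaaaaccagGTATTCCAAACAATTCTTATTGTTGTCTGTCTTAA
Trdn-201, exon 9 to exon 10: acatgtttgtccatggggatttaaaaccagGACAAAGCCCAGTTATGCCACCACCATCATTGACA
The read-through runs 47 bases in Trdn-208 and 35 bases in Trdn-202, stop codon included.

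Most of the triadin TPM was on the short products. Trdn-202 had 76.2 and 69.3 TPM in the alignment-derived transcript tables, 62.9% ± 3.09 of the gene, and 55.7% ± 5.10 in the FASTQ-derived tables. Trdn-208 held 5.64% ± 0.05 and 10.8% ± 0.09, and full-length Trdn-201, at 12.5 and 9.05 TPM, held 9.23% ± 1.03 and 12.0% ± 1.63. In both animals and both tables Trdn-202 was thus the main transcript. As a share of counts, which is not divided by length, Trdn-202 held 41.2% ± 2.72, Trdn-201 24.6% ± 2.35 and Trdn-208 13.8% ± 0.35. The long product thus exceeded the exon 8 product in both alignment-derived tables and by counts, while in the FASTQ-derived table of replicate 2 both held 10.8%. The values of Trdn-202 have a limit. Trdn-204, a retained-intron transcript of 1665 bases in 1 exon, shares 207 of the 211 bases of the last exon of Trdn-202, the exon with the read-through. Trdn-204 also holds 1458 bases of the intron before exon 9. It stood at 25.6 and 22.1 TPM, 20.6% ± 0.22 of the gene in the alignment-derived tables and 17.6% ± 0.35 in the others. The antisense gene D830005E20Rik overlaps Trdn on the opposite strand, at 15.0 and 12.2 TPM. By gene bounds, 2 protein-coding genes, named here for the same limit, also lie opposite members. Aven lies opposite Ryr3, at 7.01 and 7.12 TPM against 0.28 and 0.43 for Ryr3. Clvs1 lies opposite Asph, at 4.68 and 2.93 TPM. The library kit was directional, but whether strand entered the counting was not stated in the sources.

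The full-length product adds a charged stretch. Triadin's luminal part is known for alternating lysine and glutamate residues, through which it binds calsequestrin. Which codons take part in that binding was not tested. Lysine made up 21.5% of the codons of Trdn-201, the top 0.0837% of genes, against a median of 5.36%. The 30 codons with the most lysine were codons 305 to 334, which lie beyond the exon 9 edge (codon 282) and so outside Trdn-202 and Trdn-208. They are shown 5′ to 3′ with the lysine codons in capitals.
Trdn-201, codons 305 to 334: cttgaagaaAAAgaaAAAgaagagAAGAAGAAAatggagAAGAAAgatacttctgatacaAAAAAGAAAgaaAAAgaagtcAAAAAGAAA
Of the 30 codons 14 were lysine and 10 acidic. The short products kept a lysine-rich part of their own, with 16.7% lysine codons in Trdn-202 and 17.7% in Trdn-208. Codons 305 to 334 were chosen by lysine count alone, so their absence from the short products does not bear on calsequestrin binding.

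Asph uses 2 groups of starts, 25445 bases apart, and several ends. Junctin is a short membrane protein with a lysine-rich luminal part. Junctate has an acidic calcium-binding part, and the longest product carries the hydroxylase domain. Which of the transcripts below makes which protein was not assigned. The sequences show the first 60 coding bases from each start and the last 60 at each of 3 ends, on the minus strand, 5′ to 3′ (mm10), with the start or stop codon in capitals.
Upstream start (Asph-202): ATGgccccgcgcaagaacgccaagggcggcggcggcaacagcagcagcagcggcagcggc
Downstream start (Asph-208): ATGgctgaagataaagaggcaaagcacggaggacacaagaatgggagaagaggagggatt
Short end (Asph-206): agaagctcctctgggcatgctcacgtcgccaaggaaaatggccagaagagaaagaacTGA
Middle end (Asph-208): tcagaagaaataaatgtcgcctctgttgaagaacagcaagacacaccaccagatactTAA
Longest end (Asph-202): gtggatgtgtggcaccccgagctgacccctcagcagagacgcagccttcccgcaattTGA
Asph-206 codes for 207 residues and has 5 exons, of which 3 are shared with Asph-208 and 2 with Asph-202. Its codons were 16.9% lysine, the top 0.321% of genes. The 272 codons of Asph-208, by contrast, were 27.6% acidic, the top 0.172%, and 2.57% lysine. The longest product, Asph-202 with 741 codons, was 17.8% acidic.

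Among the annotated coding ends of Asph the short end led by TPM. Asph-206 was the main transcript in both animals and both tables, at 30.6 and 27.5 TPM, 39.0% ± 2.80 of the gene in the alignment-derived and 39.9% ± 0.98 in the FASTQ-derived tables. The stop codon of Asph-206, shared with Asph-201, held 39.0% ± 2.80 and 48.8% ± 2.10 in these tables. The middle end, of 5 transcripts including Asph-208 (14.3% ± 2.96 and 17.3% ± 0.78 alone), held 21.7% ± 1.59 and 19.7% ± 0.96. The longest end, of Asph-202 (12.1% ± 4.21 and 6.55% ± 0.28 alone), Asph-211 and Asph-212, held 15.3% ± 0.16 and 14.3% ± 0.04. By counts the order was different. There the longest end led with 41.8% ± 0.01, followed by the short end with 26.9% ± 1.79 and the middle end with 23.7% ± 1.65. Among the annotated ends, the longest thus took the largest share of reads and the short one the largest share of TPM. Asph-220, a 615-base transcript whose coding end is not annotated, held 19.9% ± 0.61 and 12.9% ± 1.22 and is left out of these ends. It runs to position 9607797, past the stop codon of the short end (9621880), so it is not of the short end. Whether it is of the middle or the longest end was not assigned. Counted with the middle end, it would put that end above the short end by mean in the alignment-derived tables. In the FASTQ-derived tables it would not. Transcripts of the downstream start, a grouping chosen after the values were seen, held 76.4% ± 0.98 and 73.6% ± 1.11 of TPM and 50.3% ± 1.86 of counts.

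**Figure D3:**
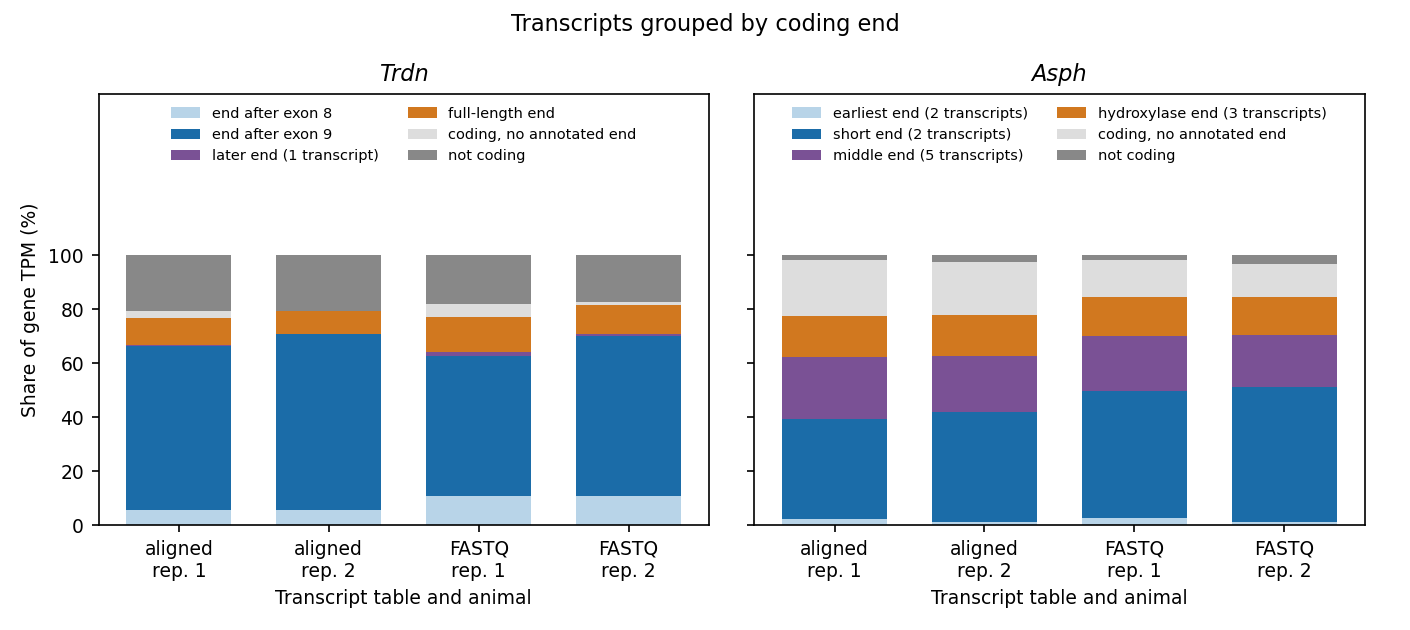
Share of gene TPM (vertical, %) of Trdn and Asph transcripts grouped by stop codon, in each animal and each transcript table (bars add to 100). In all 4 Trdn bars the end after exon 9 is the largest block, and in all 4 Asph bars the short end is. Asph-220 is in the block without an annotated end. The label hydroxylase end stands for the longest end of the text, to which no protein was assigned.

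Elsewhere in the unit, the isoform make-up was simpler or too sparse to read. The 10 genes had 76 annotated transcripts, and 9 of 10 genes had the same main transcript in both tables. Ryr2-201, of 105 exons, held 85.6% ± 0.14 and 89.0% ± 0.27 of Ryr2 TPM, and Hrc-201 held 98.6% ± 0.19 and 99.0% ± 0.27. Ryr2-203, which stops early after 25 exons and was singled out after its values were seen, held 6.58% ± 0.36 in the alignment-derived but 1.95% ± 0.07 in the FASTQ-derived tables. For Ryr1 both tables named Ryr1-201 in replicate 1 and Ryr1-202 in replicate 2. These transcripts differ by 6 bases in coding length (15099 and 15105), and with 148 and 177 reads the gene cannot settle which was used. FASTQ-derived tables also gave Ryr1-203, a retained-intron form, 16.1% ± 22.7. Ryr3 had no shared main transcript: Ryr3-201 led in 1 alignment-derived table and Ryr3-211 in 1 FASTQ-derived table, both of replicate 1. In replicate 2 the lead was Ryr3-203 in both, a retained-intron form with 1.62 and 2.04 counts, and Ryr3-205, another one, held 8.54% ± 12.1 and 10.6% ± 15.0.

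The share on transcripts annotated as not coding ranged widely between the members. In Trdn it was that of Trdn-204, given above. In Ryr2 the 9 retained-intron transcripts held 4.31% ± 0.14 and 4.98% ± 0.11 of TPM. Hrc and Jph2 have no such transcript, and in Jph1 it was listed at 0. Casq1-202, a retained-intron form, held 35.0% ± 7.32 and 30.97% ± 6.27 of Casq1 TPM, on 13.5 and 16.6 counts. The tables parted on several members. Ryr1, at 0.29 and 0.38 TPM, had 5.26% ± 7.44 of its TPM on such transcripts in the alignment-derived and 24.8% ± 14.4 in the FASTQ-derived tables, and Ryr3 34.6% ± 33.8 and 44.3% ± 38.4. Among the abundant members Casq2 showed the widest gap, 3.39% ± 4.80 against 18.2% ± 2.30. Casq2-202, an incomplete processed transcript of 7 exons, was listed at 0 in both alignment-derived tables but at 61.7 and 56.4 TPM in the FASTQ-derived ones, 17.1% ± 0.65 of the gene. Coding Casq2-201 had 329 and 262 TPM in the first tables and 309 and 257 TPM in the second. Summed to genes, 0 of the 8 members with a mean of 1 TPM or more were 2-fold apart between the tables, beside 4.27% of all such genes. The largest differences were those of Ryr2, at -0.17 and -0.13 on the log2 scale of FASTQ-derived over alignment-derived TPM, and Casq2, 0.14 higher in both animals.

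**Figure D4:**
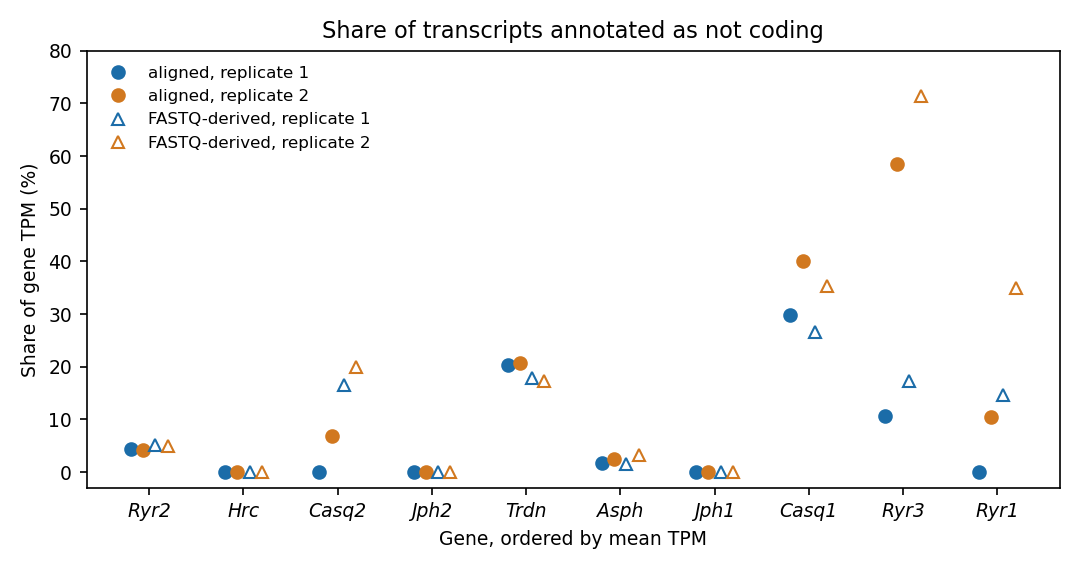
Share of gene TPM (vertical, %) on transcripts annotated as not coding, for each gene, animal and transcript table. Trdn lies near 20 in all 4, Casq2 between 0 and 20 depending on the table, and Ryr3 and Ryr1 differ between the animals on few counts.

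The animals differed little in these genes. Log2 ratios of replicate 2 over replicate 1 (TPM + 0.1) were centred on the median of all compared genes, which was -0.18. After centring, Ryr2 stood at -0.142, Asph at -0.12, Trdn at -0.05, Jph2 at -0.04, Casq2 at -0.03, Jph1 at -0.00, Hrc at 0.01 and Casq1 at 0.05. Of these 8 compared members 0 were 2-fold apart, beside 1.41% of 11876 compared genes, and the median was -0.04, with 6 below 0. The middle 50% of compared genes (quartiles) lay between -0.135 and 0.143, so that Ryr2 was the member just outside it. Ryr1 and Ryr3 were too low to be compared. Without centring, the credibility interval of replicate 2 lay wholly below that of replicate 1 in 7 of the 8, Casq1 being the exception, beside 26.6% of all compared genes. These intervals narrow with read number, which is high in most of the 7, and with 1 library per animal they do not cover variation between animals. The atrial markers were lower in replicate 2 as well, 5 of 5, with a median centred ratio of -0.48. The median was 0.01 for the 8 cardiomyocyte and 0.04 for the 4 ventricular markers, lists that share Myl2 and Myl3. The other ventricular markers, Irx4 and Hey2, went opposite ways, at 0.54 and -0.31. Whether chamber content has a part in the small differences of the members was not tested.

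**Figure D5:**
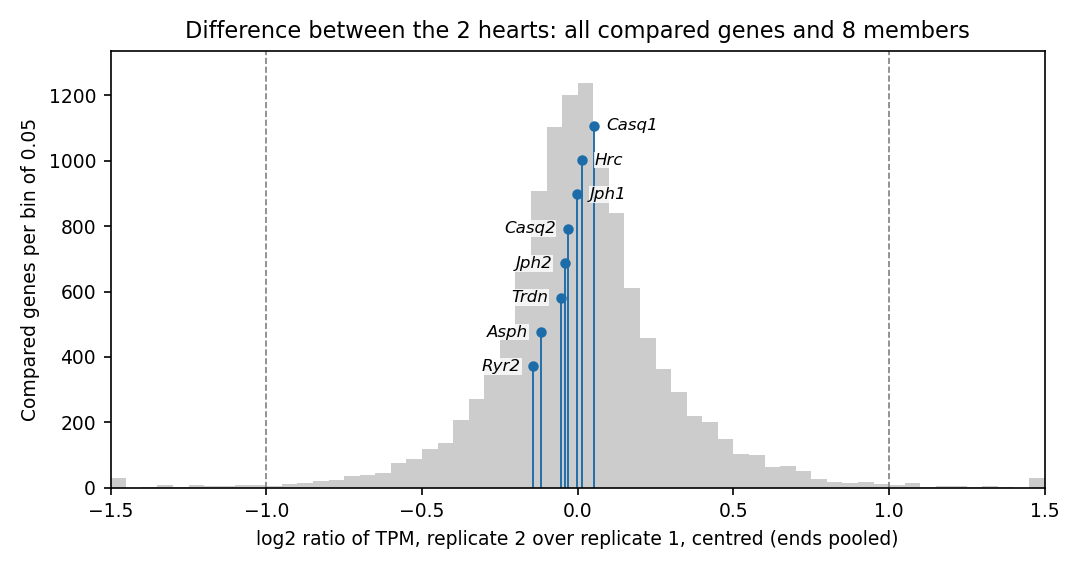
Number of compared genes (vertical) by centred log2 ratio of TPM in replicate 2 over replicate 1 (horizontal; values past 1.5 are pooled at the ends), with the 8 compared members marked at heights chosen for legibility. Dashed lines mark 2-fold; the members lie between -0.14 and 0.05, within the bulk of the genes.

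At the level of transcripts, 38 of the 76 had a mean of 20 or more counts in both tables, and 5 were 2-fold or more apart between the animals the same way in both, beside 5.76% of all transcripts so compared. Ryr1-201 and Ryr1-202, described above, were 2 of the 5, each with credibility intervals that overlapped between the animals. The others were named after their values were seen. Casq2-203, a retained-intron form at the 3′ end of the gene (chr3:102144051-102145585), had 0 counts in replicate 1 and 313 and 90.3 counts in replicate 2, which is 19.8 and 7.50 TPM in the alignment-derived and FASTQ-derived tables. Its credibility intervals, up to 3.14 TPM in replicate 1 and 11.6 to 26.0 in replicate 2, did not overlap. Ryr2-206, a retained-intron form near the 5′ end of Ryr2, had 2.30 and 0.62 TPM in the first table and 2.23 and 0.56 in the second, with intervals that did not overlap. Trdn-206, an incomplete coding form, had 3.27 TPM in replicate 1 and 0 in replicate 2, with overlapping intervals. Transcripts of 1 gene share reads, so the 5 are not independent of each other.

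Around the release unit, 42 of 51 other genes of the pathway reached 1 TPM in both animals, beside 48.7% of all protein-coding genes. Of those compared 0 were 2-fold apart between the animals, beside 1.41% of all compared genes, so the 0 does not set them apart. Of the 16 partners and regulators of the channel 15 reached 1 TPM in both animals (median 47.4 ± 7.37 TPM). These were led by S100a1, a calcium-sensing protein that binds the receptor, at 384 ± 13.9 TPM, and the phosphatase subunit Ppp1cb at 139 ± 11.3 TPM. The exception was Fkbp1b, the FK506-binding protein known as a partner of Ryr2, at 0.10 TPM and 3 counts in each animal. Its paralogue Fkbp1a, named here for that contrast, had 69.2 ± 9.60 TPM. All 7 store and counter-ion genes were present, led by Srl (sarcalumenin, 296 ± 52.1 TPM) and the chaperone Hspa5 (206 ± 15.1 TPM).

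All 6 genes of calcium uptake and extrusion were present, led by the pump Atp2a2 at 4570 ± 513 TPM and its inhibitor Pln at 3003 ± 266 TPM, both far above Ryr2. The 8 T-tubule genes were all present (median 31.1 ± 7.70 TPM), led by Tcap, a Z-disc protein, at 1051 ± 135 TPM and the L-type channel Cacna1c, which triggers release, at 89.2 ± 8.79 TPM. Of 6 other release channels and junctophilin or Asph relatives 3 reached 1 TPM. The IP3 receptors Itpr1 and Itpr2 led them, at 11.3 ± 1.72 and 6.95 ± 0.68 TPM, both above Ryr1 and Ryr3. Jph3 (0.02 and 0.02 TPM), Asphd1 (0.10 and 0.07 TPM) and Asphd2 (0.15 and 0.06 TPM) stayed below it.

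Of 8 genes of skeletal coupling 3 reached 1 TPM in both animals, beside 48.7% of all protein-coding genes, so the count itself does not set the list apart. They were led by the skeletal L-type channel Cacna1s at 5.58 ± 0.06 and the pump Atp2a1 at 3.59 ± 0.16 TPM. The adaptor Stac3 (0.28 and 0.02 TPM), the channel subunit Cacng1 (0.03 and 0.05), Jsrp1 (0.29 and 0.23), Jph4 (0.01 and 0.03) and Mrln (1.56 and 0.86) did not. Jph4 was in the list although the main junctophilin of skeletal muscle is Jph1, so its low level does not bear on skeletal coupling. Of 12 skeletal fibre markers 8 reached 1 TPM, with a summed level of 155 and 124 TPM, of which Acta1, an actin that heart muscle makes too, gave 129 and 98.6. The fast myosin Myh4 was at 2.76 and 3.41 TPM, and Myh1 and Myh2 were at 0.22 ± 0.01 and 0.15 ± 0.02 TPM; these 3 were named after their values were seen. By counts Ryr1 was higher in replicate 2 (148 and 177) and Casq1 was lower (76 and 65), while the skeletal fibre markers went both ways. Whether the few Ryr1 and Casq1 reads came from heart muscle cells or from other cells was not tested.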

How the data were processed

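Total RNA libraries of 2 hearts were analysed from 1 gene table and 2 transcript tables per library. Per the deposited description files, build mm10 was used with GENCODE M21; gene tables and 1 kind of transcript table came from transcriptome alignments, the other kind from FASTQ files. Aligner and quantifier: not given in the sources used here. Per the file headers, the alignment-derived tables hold expected counts, TPM and FPKM, posterior means and credibility bounds, used as a signal on the TPM scale, and the isoform percent; the interval level is not given. The deposited FASTQ-derived tables hold estimated counts and TPM. Reads of the CAST/EiJ allele may be assigned less well to this reference. The labels give both libraries 1 donor identifier and separate animal numbers; n = 2 rests on the latter.

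Depth was 42223411 and 40553237 expected counts, and 43782858 and 41468698 in the FASTQ-derived tables. Without molecular identifiers, reads are not independent molecules. Ratios within a library used TPM + 0.01, ratios between animals or tables TPM + 0.1. Animals were compared for genes with a mean of 1 TPM and 20 expected counts over both libraries. The calculation was run on counts simulated without variation between animals, which says nothing on how far 2 hearts differ. Coding ends, starts and codons came from GENCODE M21. Python 3.11.15, pandas 2.3.3, NumPy 2.4.6 and matplotlib 3.10.9 were used. The members and gene lists were chosen with earlier results of these data known. Named are all members, in each pathway list the 2 highest genes and those under 1 TPM in either animal, the highest gene of each marker list, and transcripts that lead a gene or hold 10% of its TPM; other names are marked as such.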

Additional observations from a re-analysis of the deposited data

How the results depend on the processing

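Of 131 recomputed values, 100 stayed within 1 SD or within 1.5 times the count, 30 moved further and 1 reversed. The 100 include all values from either animal alone. With 2 animals these, counts aside, lie within 1 SD of the mean by construction and say nothing on stability. The reversed value was the log2 ratio of Hrc to Ryr2, 0.074 with only the main isoforms against -0.13. Ratios to low genes moved with the pseudocount and the unit. Ryr2 over Ryr1 was 9.50 by posterior mean and 8.22 with a pseudocount of 1, and Ryr2 over Ryr3 was 8.10 and 8.20. Casq2 over Casq1 was 7.95 in the FASTQ-derived tables, 7.53 by posterior mean, 7.67 with a pseudocount of 0.1 and 7.01 with 1. Jph2 over Jph1 was 4.03 in the FASTQ-derived tables and 3.96 with a pseudocount of 1. In the FASTQ-derived tables the ratios to Ryr2 were -0.050 for Casq2, -1.69 for Trdn, -2.16 for Asph and -5.30 for Jph1, and Asph stood at -2.39 by posterior mean. With only the main isoforms they were -0.21 for Casq2, -1.11 for Jph2, -2.23 for Trdn, -3.55 for Asph and -5.21 for Jph1. The end of Trdn-202 held 55.7% in the FASTQ-derived tables, and that of Asph-206 48.8%. In 2 alternatives added after seeing the data, these ends held 41.2% and 26.9% of expected counts, and 80.6% and 50.1% of transcripts with an annotated stop codon. The cause of these moves was not tested, except that fewer transcripts are counted in the last.

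By posterior mean 9 members reached 1 TPM, and at 5 TPM 7 did. With either animal alone the Trdn-202 share was 60.7% to 65.1% and the Asph-206 share 37.0% to 40.9%; with 2 animals each value lies within 1 SD of the mean by construction. No paired analysis was possible because both libraries form 1 group. Depth limits Ryr1, Ryr3 and Casq1, whose shares rest on under 200 counts a library.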
